A study of Mus musculus with 33 samples.

Results

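Wdfy1, Trim37 and Padi2 are 3 protein-coding genes out of the 38393 features counted in mouse brain libraries of polyadenylated RNA. They were chosen by name because earlier results of these data had shown them to change in mice lacking miR-7 genes, so their values in the Mir7DKO comparisons are given as a description, without a test. Tests of the 3 genes are given only for the Cyrano mutants and for wild-type cerebellum against wild-type cortex. For Mir7DKO, the numbers of genes that passed are background, and a member is among them because it was so chosen. The 33 libraries came from male C57Bl/6J mice aged 1 month, and 3 or 4 libraries, described by the submitters as biological replicates, form each of 9 groups. Experiment 1A compared cerebellum of wild type (WT, n = 3) with CyrMut (n = 4), mice whose long noncoding RNA Cyrano carries a mutated miR-7 site. Experiment 1B compared cerebellum of WT (n = 4) with CyrKO (n = 4), mice without Cyrano, and with Mir7DKO (n = 4), mice labelled as homozygous for loss of Mir7a1 and of Mir7b. Experiment 2 compared WT (n = 4) with Mir7DKO (n = 3) in cerebellum and, separately, in cortex. Wild-type libraries were made anew for each experiment. The labels do not say whether cerebellum and cortex of experiment 2 came from the same mice, so its tissues may not stand for independent animals.

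Wdfy1 encodes a WD-repeat protein with a FYVE domain, which binds phosphatidylinositol 3-phosphate on early endosomes, and it has been described as an adaptor in Toll-like receptor signalling. Trim37 encodes a RING-type E3 ubiquitin ligase of the tripartite-motif (TRIM) family, known for roles in peroxisomal protein import and in limiting centrosome assembly. Padi2 encodes a calcium-dependent peptidylarginine deiminase, which converts arginine residues of proteins to citrulline. It is the main enzyme of its family in brain, where oligodendrocytes express it and myelin basic protein is a substrate. The microRNA miR-7 guides Argonaute to messenger RNAs that pair with its seed, usually in the 3′ UTR, and lowers their level.

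The mature miR-7 sequences are shown because the mutation concerns them and because their seed defines the matches searched for below. The sequences are from RefSeq (GRCm38.p6), 5′ to 3′, with the seed (bases 2 to 8) in capitals. The first is encoded by Mir7-1 at chr13:58392841-58392863 on the minus strand, inside Hnrnpk, and by Mir7-2 on chromosome 7. The second is encoded by Mir7b at chr17:56243017-56243040 on the plus strand. Both carry the same seed, GGAAGAC, and the labels name no loss of Mir7-2.
miR-7a-5p: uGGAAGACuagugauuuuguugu
miR-7b-5p: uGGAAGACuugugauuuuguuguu

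The 3 genes lie on different chromosomes, none of which holds a Mir7 gene. In GRCm38, Wdfy1 (ENSMUSG00000073643) spans chr1:79702262-79776143 on the minus strand and Trim37 (ENSMUSG00000018548) spans chr11:87127077-87220683 on the plus strand. Padi2 (ENSMUSG00000028927) spans chr4:140906344-140952586 on the plus strand. Mrpl44 starts 125 bp inside Wdfy1 on the opposite strand, and the predicted genes Gm10555, on the opposite strand of Wdfy1, and Gm26226 and Gm13031, within Padi2, also overlap these genes. Use of strand in counting was not given in the sources used here. Reads in the shared stretches therefore cannot be assigned with certainty.

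Of the 3 genes, Padi2 was the only one whose longest annotated 3′ UTR held a match to the miR-7 seed. The motifs searched on the sense strand were GTCTTCCA (8mer), GTCTTCC (7mer-m8), TCTTCCA (7mer-A1) and TCTTCC (6mer), each longer one containing the 6mer. Padi2 held 1 7mer-A1 and 2 further 6mers in 2662 nt. The 3249 nt of Wdfy1 and the 2349 nt of Trim37 held none of the 4 motifs. Among the 13191 genes with an annotated 3′ UTR that were tested in Mir7DKO cerebellum of experiment 2, 47.9% held a 6mer and 27.1% a 7mer or 8mer, so a match of this kind is common. The median 3′ UTR of these genes was 1267 nt, shorter than those of the 3 members. The shares were not adjusted for UTR length. The 3 Padi2 stretches are shown because Padi2 is the member with matches, and each lies in its 3′ UTR on chromosome 4, with the matched letters in capitals. They start at positions 524, 723 and 2416 of the UTR and their windows are chr4:140950437-140950465, chr4:140950635-140950664 and chr4:140952328-140952357. A match is a sequence feature and was not measured as a site of binding.
Padi2 7mer-A1 at 524: tcagcacagaaTCTTCCAgaaataggtct
Padi2 6mer at 723: tgggctcattgcTCTTCCtattttggacat
Padi2 6mer at 2416: tggactccttgcTCTTCCccacccccactg

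The libraries held 6.89 to 24.94 M counts. In CyrKO cerebellum, Cyrano (annotated as 1700020I14Rik) was at 80.4 ± 6.12 CPM (SD, n = 4; CPM is the count scaled to a common library size) against 1847 ± 189 CPM in wild type (n = 4), a log2 change of -4.53 (SE 0.089, edgeR adjusted p = 1.1e-12). The loss of mature miR-7 could not be read from these libraries of polyadenylated RNA. Mir7-1 had 0 to 4 counts and Mir7-2 had 0 in each of the 33 libraries. Mir7b had 31 counts in all, and every one was in a library labelled Mir7DKO: 9 of these 10 libraries had 1 to 8 counts, whereas the 23 libraries of other genotypes had 0. These few counts follow the label and do not measure mature miR-7. What they mean for the loss of Mir7b was not tested, and the extent of the deletion is not given in the labels. Mir7DKO therefore stands for libraries so labelled, and each Mir7DKO direction rests on that label. Of the tissue markers, 8 of 8 cerebellar genes were higher and 7 of 7 cortical genes lower in wild-type cerebellum than in wild-type cortex by edgeR. In experiment 2, choroid plexus markers differed on average between genotypes, in opposite directions in the 2 tissues, with overlapping sums in both. Within a genotype the sum also varied, from 191 to 904 CPM in WT cerebellum of experiment 1B. In experiment 2 it ran from 212 to 258 CPM in WT cerebellum and was 1485, 1093 and 213 CPM in the 3 Mir7DKO cerebella. There 6 of 10 tested markers were higher by edgeR. In cortex it ran from 263 to 972 CPM in WT and from 266 to 283 CPM in Mir7DKO, with 1 of 7 tested markers, Ttr, lower. Endothelial markers were also higher in Mir7DKO of experiment 2 without overlap, with sums of 256 to 260 CPM against 233 to 253 CPM in cerebellum and of 298 to 312 CPM against 271 to 294 CPM in cortex. Astrocyte markers had 7317 to 7509 CPM against 6698 to 7103 CPM in cortex, also without overlap, and overlapped in cerebellum. Of the 7 markers of each type, 0 passed in either tissue by edgeR or DESeq2, with 0 and 2 endothelial and 1 and 3 astrocyte genes at an unadjusted p under 0.05 in cerebellum and cortex. The part of these cell types in the members' values was not tested.

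In wild-type mice all 3 genes were expressed in every library. Per kilobase of annotated exon, Trim37 was the most abundant, at 54.5 ± 1.47 CPM per kb in cerebellum and 78.2 ± 4.01 in cortex of experiment 2 (n = 4 each). Padi2 was at 6.98 ± 0.49 and 8.86 ± 0.54 CPM per kb, and Wdfy1 at 4.44 ± 0.55 and 3.62 ± 0.15. Across the 11 wild-type cerebellar libraries of the 3 experiments, which were scaled separately in each experiment, Trim37 had a narrow range of 383.7 to 419 CPM (median 392). Wdfy1 ran from 25.7 to 35.9 CPM (median 30.3) and Padi2 from 26.8 to 38.2 CPM (median 33.9). Single libraries of Wdfy1 rest on 160 to 759 counts, of Padi2 on 176 to 790 and of Trim37 on 2888 to 9899, so counting error weighs more on Wdfy1 and Padi2.

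**Figure D1:**
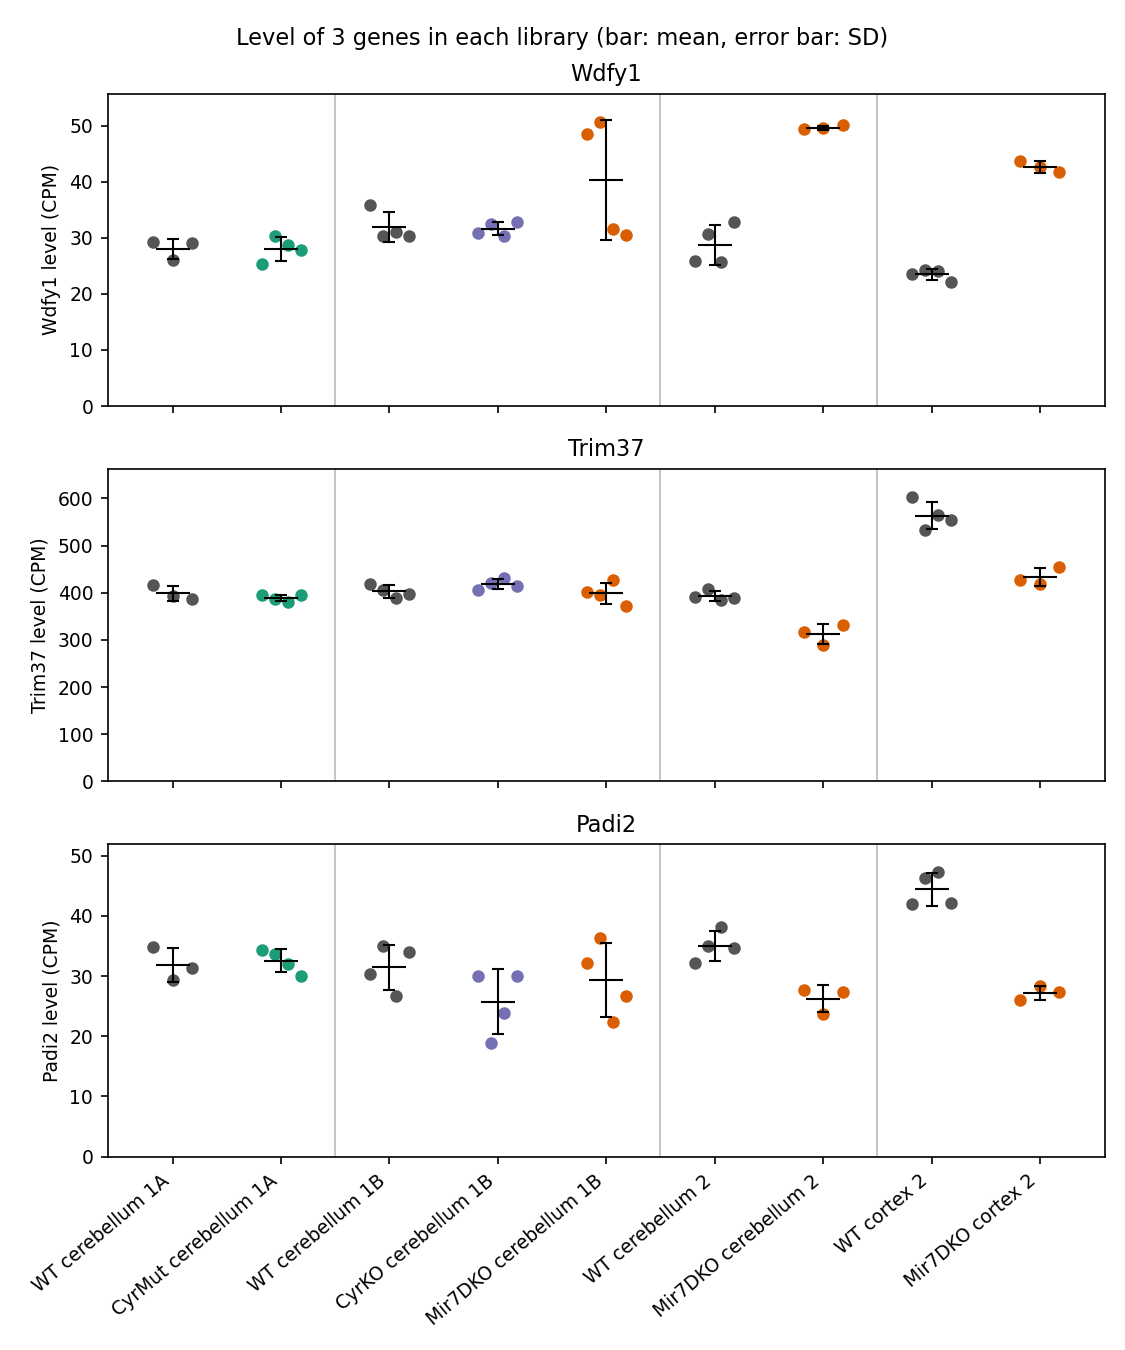
Level of Wdfy1, Trim37 and Padi2 (y axis, CPM) in each of the 33 libraries by group (x axis: genotype, tissue, experiment); points are libraries, horizontal bars group means and error bars SD. Wdfy1 in Mir7DKO cerebellum of experiment 1B lies in 2 pairs of libraries, near 50 and near 31 CPM, and in experiment 2 every Mir7DKO library of Wdfy1 lies above, and of Trim37 and Padi2 below, the wild-type libraries of its tissue.

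Wdfy1, Trim37 and Padi2 each differed between wild-type cerebellum and wild-type cortex. They were not chosen from this contrast, but its libraries are also the wild-type reference of the experiment 2 comparisons behind their choice. The adjusted p below are therefore not independent of that choice. Wdfy1 was at 25.9, 30.7, 25.7 and 32.8 CPM in the 4 cerebella and at 23.5, 24.2, 24.1 and 22.1 CPM in the 4 cortices. The cerebella lay above all cortices, with a log2 change of 0.29 (SE 0.088, 95% interval 0.11 to 0.47, edgeR adjusted p = 0.0053). Trim37 was lower in cerebellum, at 392, 408, 384 and 389 CPM against 603, 534, 564 and 555 CPM in cortex. The groups did not overlap, and the log2 change was -0.53 (SE 0.041, 95% interval -0.61 to -0.44, edgeR adjusted p = 5.9e-11). Padi2 was also lower in cerebellum, at 32.2, 35.0, 38.2 and 34.6 CPM against 42.0, 46.3, 47.2 and 42.2 CPM, again without overlap. Its log2 change was -0.35 (SE 0.068, 95% interval -0.49 to -0.21, edgeR adjusted p = 8.7e-05). The 2 tissues differ in most genes: 74.7% of the 14001 genes tested passed, and 68.4% had groups that did not overlap. A call for 3 of 3 genes is therefore near what genes in general show here, and 66.9%, 46.0% and 61.0% of all tested genes had a log2 difference at least as large as those of Wdfy1, Trim37 and Padi2.

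In the Cyrano mutants none of the 3 genes passed the test. In CyrMut cerebellum, Wdfy1 was at 25.3, 30.3, 28.7 and 27.9 CPM against 29.2, 26.0 and 29.0 CPM in wild type, and the groups overlapped. The 95% interval of the log2 change ran from -0.18 to 0.18 for Wdfy1 (edgeR adjusted p = 0.9998). For Trim37, at 381 to 395 CPM in CyrMut and 387 to 417 CPM in wild type, the change was -0.03 (SE 0.050, interval -0.14 to 0.08, edgeR adjusted p = 0.97). For Padi2, at 30.1 to 34.4 CPM in CyrMut and 29.4 to 34.8 CPM in wild type, it was 0.03 (SE 0.082, interval -0.15 to 0.21, edgeR adjusted p = 0.983). All 3 members overlapped with wild type, where 5.39% of the 14866 genes tested did not. Only 1 gene (0.00673%) passed edgeR's test here, and 740 genes, none of them a member, had an unadjusted p under 0.05. Among these were 13 of 14 choroid plexus markers, with sums of 253 to 2559 CPM in CyrMut and 197 to 867 CPM in wild type.

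In CyrKO cerebellum, Wdfy1 was at 30.9, 32.4, 30.4 and 32.8 CPM, among the wild-type libraries at 35.9, 30.4, 31.1 and 30.3 CPM. The log2 change was -0.02 (SE 0.078, interval -0.19 to 0.15, edgeR adjusted p = 0.956). Trim37 was at 406 to 430 CPM against 389 to 419 CPM, a change of 0.05 (SE 0.050, interval -0.06 to 0.15, edgeR adjusted p = 0.815). Padi2 was at 30.1, 18.9, 23.9 and 30.1 CPM in CyrKO and at 30.4, 35.0, 26.8 and 33.9 CPM in wild type. All 4 CyrKO libraries lay below 3 of the 4 wild-type libraries, and the ranges overlapped. Its change of -0.30 (SE 0.13, interval -0.59 to -0.01) did not pass after adjustment over all genes (edgeR adjusted p = 0.677). Without CyrKO replicate 2, the library with the lowest Padi2, the change was -0.18 (SE 0.11, edgeR adjusted p = 0.606). That library also had the lowest summed level of oligodendrocyte markers of all 33, 6086 CPM, where the other 3 CyrKO libraries had 8626 to 9003 CPM, and the Padi2 level relative to these markers is given further on. In all, 3 genes of 13664 (0.022%) passed in this comparison, none of them a member, and 4.16% of genes had groups that did not overlap. The wild-type libraries here are also the reference of Mir7DKO in experiment 1B. The CyrKO values are therefore not independent of that comparison.

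**Figure D2:**
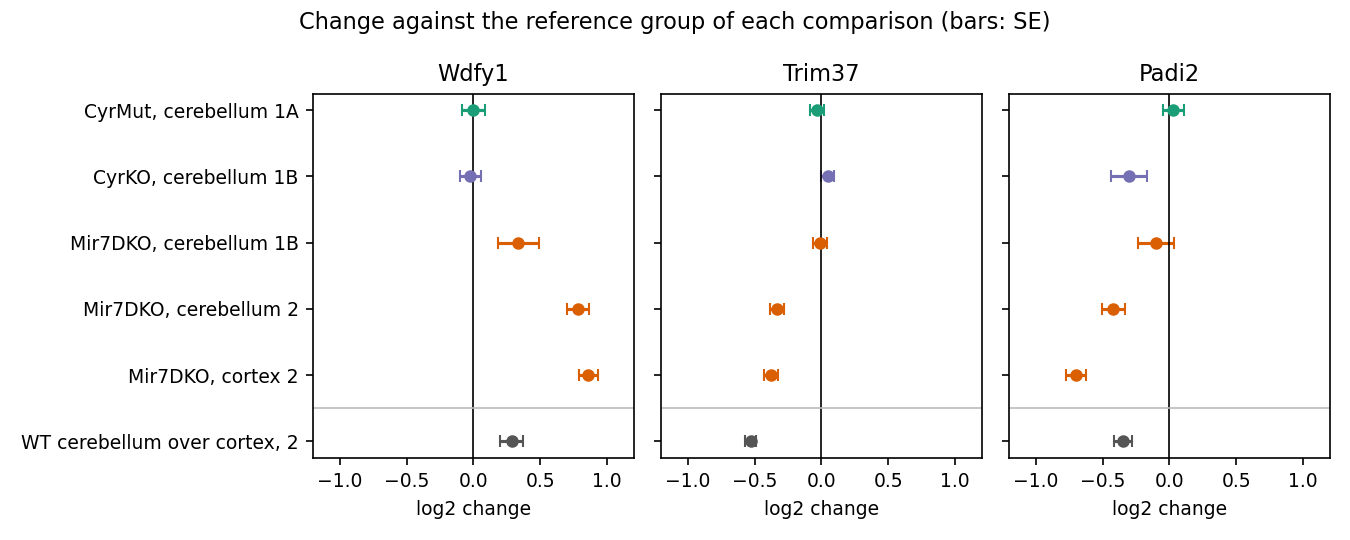
Log2 change of Wdfy1, Trim37 and Padi2 (x axis) in the 5 comparisons of a mutant with its wild type and in wild-type cerebellum over cortex (y axis); points are edgeR estimates and bars 1 SE. The CyrMut and CyrKO points of Wdfy1 and Trim37 lie within 0.05 of 0, and the Mir7DKO points of experiment 2 lie at 0.78 and 0.86 for Wdfy1, -0.33 and -0.38 for Trim37, and -0.42 and -0.70 for Padi2.

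In Mir7DKO cerebellum of experiment 1B, Wdfy1 fell into 2 levels. Replicates 1 and 2 had 48.5 and 50.7 CPM and replicates 3 and 4 had 31.6 and 30.6 CPM, while the wild-type libraries had 35.9, 30.4, 31.1 and 30.3 CPM. Relative to the wild-type mean, the first 2 libraries were at 152% and 159% and the other 2 at 99.0% and 95.7%. The gap between the pairs was thus larger than the whole range of the wild-type group, and the other 2 libraries lay inside that range. The group value hides this: 40.4 ± 10.8 CPM (SD, n = 4) against 31.9 ± 2.68 CPM (n = 4), a log2 change of 0.34 (SE 0.15). The coefficient of variation of Wdfy1 was 26.6% in this group and between 0.729% and 12.3% in the other 8 groups.

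Trim37 did not split in this way. In replicates 1 to 4 it was at 402, 395, 427 and 371 CPM, around the wild-type 419, 407, 389 and 397 CPM, a log2 change of -0.01 (SE 0.053). Padi2 was at 32.3, 36.3, 22.3 and 26.7 CPM against the wild-type 30.4, 35.0, 26.8 and 33.9 CPM, a change of -0.10 (SE 0.14). The 2 libraries with high Wdfy1 were also those with the higher Padi2, and the other 2 lay below the lowest wild-type library. These 2 libraries with low Padi2 had oligodendrocyte marker sums of 7236 and 6853 CPM, where the wild-type range was 8395 to 9029 CPM. Replicate 1, with Padi2 at 32.3 CPM, was also below that range, at 7614 CPM, and replicate 2 was within it, at 8908 CPM. The direction of the small Padi2 change rested on 1 library, since without Mir7DKO replicate 3 it was 0.02. For 3 of 3 members the Mir7DKO and wild-type ranges overlapped in experiment 1B, where 2.54% of the 14031 genes tested had ranges that did not overlap and 1 gene (0.00713%), which was none of them, passed edgeR's test.

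In experiment 2 each Mir7DKO library of both tissues lay beyond every wild-type library of its tissue for each of the 3 genes. In cerebellum, Wdfy1 was at 49.4, 49.5 and 50.1 CPM in Mir7DKO and at 25.9, 30.7, 25.7 and 32.8 CPM in wild type. The Mir7DKO libraries had a coefficient of variation of 0.729%, the lowest of Wdfy1 in the 9 groups. At 619 to 645 counts a library, counting error alone exceeds this value on average, so it does not measure biological spread. The log2 change was 0.78 (SE 0.081), a 1.72-fold higher level. In cortex, Wdfy1 was at 43.8, 42.7 and 41.7 CPM against 23.5, 24.2, 24.1 and 22.1 CPM, a log2 change of 0.86 (SE 0.072), or 1.82-fold. The 2 high libraries of experiment 1B, at 48.5 and 50.7 CPM, were close in level to the 3 Mir7DKO cerebella of experiment 2, although the experiments were scaled separately.

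Trim37 was lower in Mir7DKO of experiment 2. In cerebellum it was at 316, 289 and 332 CPM against 392, 408, 384 and 389 CPM in wild type, a log2 change of -0.33 (SE 0.052), or 0.793 of the wild-type level. In cortex it was at 427, 419 and 454 CPM against 603, 534, 564 and 555 CPM, a log2 change of -0.38 (SE 0.050), or 0.769 of the wild-type level. Mir7DKO cortex, at 434 ± 18.4 CPM (n = 3), was thus nearer to wild-type cerebellum, at 393 ± 10.6 CPM (n = 4), than to wild-type cortex, at 564 ± 28.9 CPM (n = 4).

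Padi2 was lower in Mir7DKO of experiment 2 in both tissues as well. In cerebellum it was at 27.7, 23.7 and 27.4 CPM against 32.2, 35.0, 38.2 and 34.6 CPM, a log2 change of -0.42 (SE 0.084), or 0.748 of the wild-type level. In cortex it was at 26.0, 28.4 and 27.4 CPM against 42.0, 46.3, 47.2 and 42.2 CPM, a log2 change of -0.70 (SE 0.075), or 0.616 of the wild-type level. The 2 tissues differed in the wild type, at 35.0 ± 2.48 and 44.4 ± 2.72 CPM (n = 4 each), and had means of 26.3 ± 2.27 and 27.3 ± 1.16 CPM in Mir7DKO (n = 3 each), with overlapping ranges. Whether the change differed between tissues was not tested, since both changes had served to choose the gene.

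**Figure D3:**
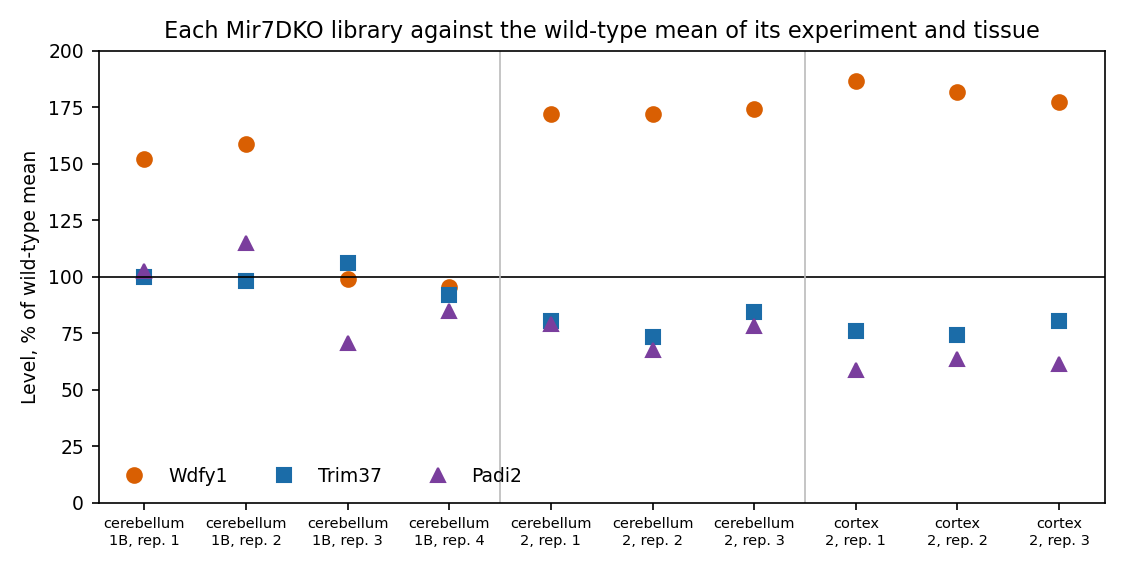
Level of Wdfy1, Trim37 and Padi2 in each of the 10 Mir7DKO libraries (x axis: tissue, experiment, replicate) as a percentage of the mean of the wild-type libraries of the same experiment and tissue (y axis); each point is 1 library and the horizontal line marks 100%. Wdfy1 is at 152% and 159% in 2 libraries of experiment 1B, near 100% in the other 2, and at 172% to 186% in all 6 libraries of experiment 2, where Trim37 is at 73.5% to 84.4% and Padi2 at 58.6% to 79.2%.

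The 3 genes were among few that passed in experiment 2, as their choice entails. In cerebellum 28 of 14146 genes tested passed (0.198%), and in cortex 6 of 13754 (0.0436%), while 6.67% and 6.86% of genes had groups that did not overlap. Of these, 5 genes passed in both tissues, which is 17.9% of the cerebellar and 83.3% of the cortical ones. They were Wdfy1, Trim37, Padi2, Cd59a, which encodes an inhibitor of complement lysis, and Ttr. The other gene that passed in cortex was Cd93, which is on none of the marker lists. It changed by 0.50 (SE 0.083) in cortex and by 0.33 (SE 0.098) in cerebellum, where it did not pass. Trim37 and Padi2 lost their cerebellar call without wild-type replicate 1 and also without wild-type replicate 2. Ttr, the transthyretin of the choroid plexus, changed by 6.01 in cerebellum and by -5.78 in cortex, whereas the 3 genes and Cd59a changed the same way in both. Among the sizes of change of all genes, a log2 change at least as large was seen for 0.848% of tested genes for Wdfy1 in cerebellum and 0.182% in cortex, for 7.16% and 3.56% for Trim37, and for 4.41% and 0.444% for Padi2.

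The values of the 3 genes can be set beside the choroid plexus sum of each library. The Mir7DKO cerebellum with a choroid plexus sum of 213 CPM, in the wild-type range, was replicate 3. It had 50.1 CPM of Wdfy1, 332 CPM of Trim37 and 27.4 CPM of Padi2, each beyond the wild-type libraries, as did replicates 1 and 2 with sums of 1485 and 1093 CPM. In cortex, where the Mir7DKO sums were at the low end of the wild-type range, the 3 genes changed in the same directions as in cerebellum. These values had served to choose the genes, and the cerebellar library with a low sum is only 1. They are a description, and the part of choroid plexus in the values of the 3 genes was not tested.

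Set against all wild-type cerebella, including those of other experiments that were scaled separately, 5 of the 7 Mir7DKO cerebella lay above the highest of 11 wild-type values for Wdfy1 and 2 lay within the range. For Trim37, 4 lay below, 1 above and 2 within, and for Padi2, 3 lay below and 4 within. Ordered by group mean, Wdfy1 was highest in Mir7DKO cerebellum of experiment 2 (49.7 CPM), followed without overlap by Mir7DKO cortex (42.7 CPM), and lowest in wild-type cortex (23.5 CPM). The 6 groups in between, from Mir7DKO of experiment 1B (40.4 CPM) to CyrMut (28.1 CPM), each overlapped the next. Trim37 was highest in wild-type cortex (564 CPM), apart from Mir7DKO cortex (434 CPM), and lowest in Mir7DKO cerebellum of experiment 2 (312 CPM), apart from the group above it. Padi2 was highest in wild-type cortex (44.4 CPM), apart from wild-type cerebellum of experiment 2 (35.0 CPM), and below that each group overlapped the next down to CyrKO (25.7 CPM).

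Padi2 was compared with oligodendrocyte markers because it is expressed in that cell type. In bulk tissue, fewer cells of a type and less RNA per cell cannot be told apart. Of the 16 markers, which include Mbp and Mog, 0 passed in any of the 5 mutant comparisons by edgeR or DESeq2, and over the 5 there were 11 unadjusted p under 0.05, or 13.75% of the marker tests against 5.69% of the tests of all genes. In Mir7DKO of experiment 1B they were 5 of 16 markers (31.25%), against 3.68% of all genes, and in CyrKO 3 of 16 (18.75%), against 7.35%. Their median log2 change was -0.16 in Mir7DKO of experiment 1B, -0.09 in CyrKO, -0.06 in Mir7DKO cerebellum and -0.08 in Mir7DKO cortex of experiment 2. In CyrMut it was 0.04, and 0 of 16 markers had an unadjusted p under 0.05. Over all genes tested these medians were within 0.004 of 0. In experiment 2 the summed marker level ran from 7990 to 8699 CPM in Mir7DKO and from 8126 to 8821 CPM in wild-type cerebellum, and from 8321 to 8796 CPM in Mir7DKO and from 8490 to 9436 CPM in wild-type cortex, with overlap in both tissues.

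Padi2 was also set against the marker sum of the same library, a measure added after the data had been seen. The experiment 2 values had served to choose Padi2, so they are a description, and the part of oligodendrocytes in them was not tested. Per 1000 CPM of markers, Padi2 was at 3.17 ± 0.22 CPM in Mir7DKO cerebellum (n = 3; 2.96 to 3.39) and 4.11 ± 0.27 CPM in wild type (n = 4; 3.72 to 4.33). In cortex it was at 3.21 ± 0.08 CPM in Mir7DKO (n = 3; 3.13 to 3.29) and 4.996 ± 0.40 CPM in wild type (n = 4; 4.63 to 5.56). The groups did not overlap in either tissue, and the log2 ratios of the means were -0.38 and -0.64, where Padi2 alone had -0.42 and -0.70. In experiment 1B the same measure was at 3.82 ± 0.51 CPM in Mir7DKO, 3.15 ± 0.37 CPM in CyrKO and 3.64 ± 0.38 CPM in wild type (n = 4 each), with overlap of each mutant with wild type. The log2 ratio of the CyrKO and wild-type means was -0.21, where Padi2 alone had -0.30.

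**Figure D4:**
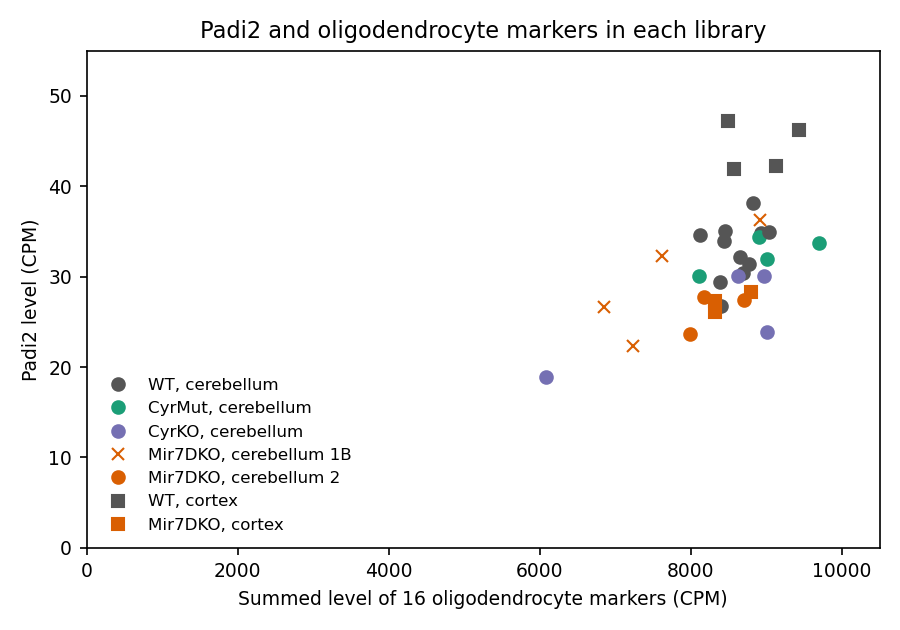
Padi2 level (y axis, CPM) against the summed level of 16 oligodendrocyte markers (x axis, CPM) in each of the 33 libraries; colour marks genotype and symbol marks tissue, with crosses for Mir7DKO of experiment 1B. The CyrKO library with the lowest Padi2, 18.9 CPM, has the lowest marker sum, 6086 CPM, whereas the Mir7DKO cortices, at 26.0 to 28.4 CPM, lie below the wild-type cortices at similar marker sums.

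Padi2 was the single member of its family that passed the filter on low counts. Over all 33 libraries together, Padi1 had 9 counts, Padi3 2, Padi4 15 and Padi6 27. Padi6 had 1 to 4 counts in each wild-type cortex and 3 to 6 in each Mir7DKO cortex, and at most 1 in any cerebellum.

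No gene around a member passed the test in a mutant comparison, where few genes passed at all. Genes whose start lies within 1 Mb of that of Wdfy1, Trim37 or Padi2 numbered 33, 73 and 70, and of these 6, 27 to 33 and 25 to 27 were tested. In each of the 5 mutant comparisons, 0 of them passed by edgeR or by DESeq2, where 0.00673% to 0.198% of all genes did by edgeR. At an unadjusted p under 0.05, 0 neighbours of Wdfy1, 1 of Trim37 and 1 of Padi2 were found in Mir7DKO cerebellum, and 0, 1 and 2 in Mir7DKO cortex of experiment 2. Over the 5 comparisons they were 1 for Wdfy1, 4 for Trim37 and 13 for Padi2, or 3.33%, 2.56% and 9.77% of the neighbour tests, where all genes gave 5.69%. The Padi2 neighbours had 6 of their 13 in CyrKO, or 22.2% of 27 tested against 7.35% of all genes, with a median log2 change of -0.11, and 3 in CyrMut, or 11.1% against 4.98%. Mrpl44, a mitochondrial ribosomal protein gene whose start lies 125 bp from that of Wdfy1, had log2 changes of -0.10 (SE 0.11) in Mir7DKO cerebellum and 0.01 (SE 0.12) in cortex of experiment 2. Serpine2, a protease inhibitor gene 85037 bp away, had -0.09 (SE 0.059) and 0.06 (SE 0.054). Beside Trim37, the kinetochore gene Ska2 had -0.06 (SE 0.11) and -0.27 (SE 0.11), the latter with an edgeR adjusted p of 0.849, and Prr11 had -0.42 (SE 0.34) in cerebellum at a level near 1.4 CPM. Beside Padi2, Sdhb, a subunit of succinate dehydrogenase, had 0.08 (SE 0.065) and 0.09 (SE 0.059), and the lysosomal ATPase gene Atp13a2 had 0.01 (SE 0.081) and -0.05 (SE 0.056). Between wild-type tissues, where 74.7% of all genes passed by edgeR, many neighbours passed as well. Of 6 tested neighbours of Wdfy1, 1 was higher and 3 lower in cerebellum. Of 29 beside Trim37, 14 were higher and 10 lower, and of 25 beside Padi2, 7 were higher and 10 lower.

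**Figure D5:**
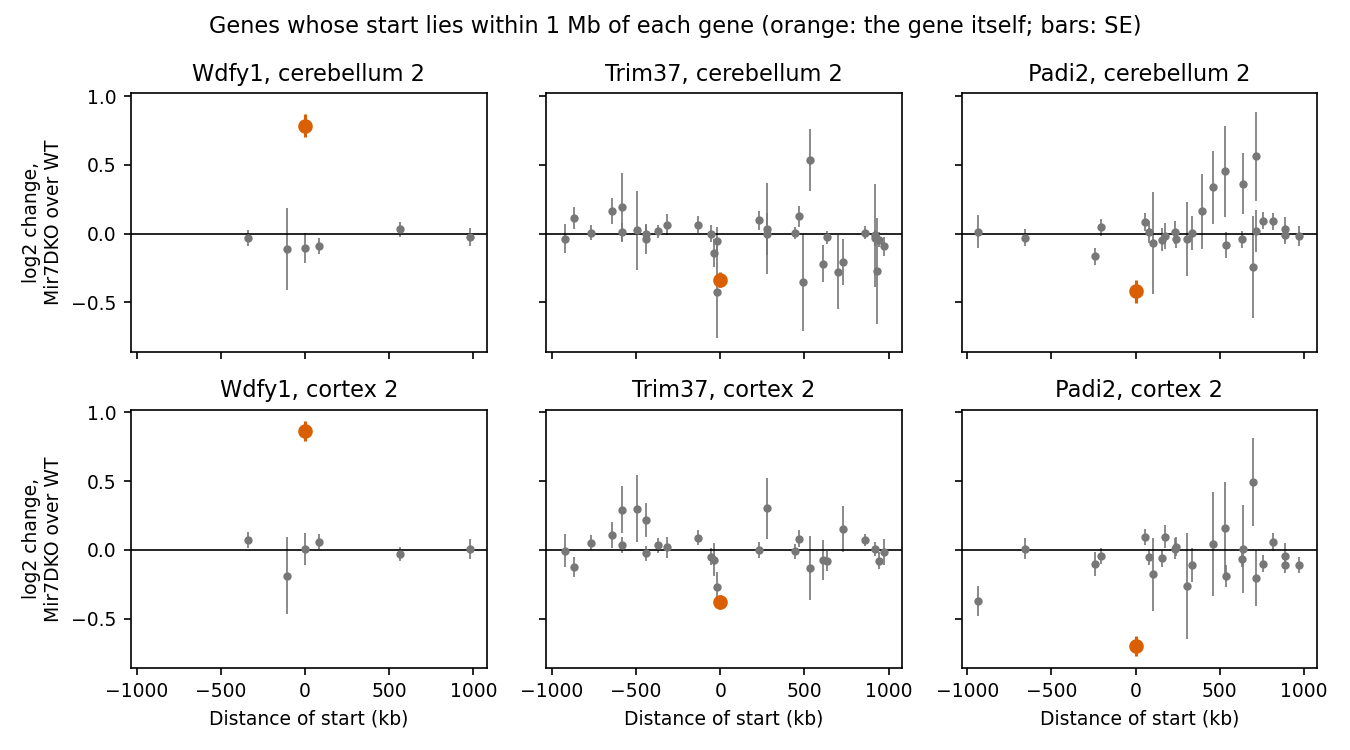
Log2 change in Mir7DKO of experiment 2 (y axis; top row cerebellum, bottom row cortex) of genes whose start lies within 1 Mb of the start of Wdfy1, Trim37 or Padi2 (x axis, distance in kb); grey points are neighbours, orange points the named gene and bars 1 SE. The named gene lies apart from the 6 tested neighbours of Wdfy1, and 0 neighbours passed the test in any panel.

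Other genes of the pathways in which the 3 proteins act were read from lists chosen with earlier results known. Of 26 or 27 tested genes around Wdfy1, which encode FYVE-domain proteins, Rab5 and Rab7, phosphoinositide kinases and Toll-like receptor adaptors, 0 passed in any of the 5 mutant comparisons by edgeR or DESeq2, with 6 unadjusted p under 0.05 over the 5 (4.51% of the list's tests). Their median log2 change was 0.001 in Mir7DKO cerebellum and 0.02 in Mir7DKO cortex of experiment 2. The relatives Wdfy2 and Wdfy3 had changes of 0.06 (SE 0.12) and 0.005 (SE 0.047) in cerebellum and 0.03 (SE 0.17) and -0.01 (SE 0.054) in cortex. In Mir7DKO of experiment 1B, Wdfy2 was at 8.30 to 11.1 CPM against 12.02 to 12.94 CPM in wild type, without overlap, a log2 change of -0.36 (SE 0.10, edgeR adjusted p = 0.9997). Tlr3, the endosomal receptor for double-stranded RNA, had -0.002 (SE 0.10) and -0.02 (SE 0.10).

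The count was also 0 for the partners of Trim37. Of 16 genes of peroxisome import and 11 or 12 genes of centriole duplication, 0 passed in the 5 mutant comparisons by edgeR or DESeq2, with 7 and 3 unadjusted p under 0.05 (8.75% and 5.08% of their tests) and medians between -0.03 and 0.05. Pex5, the import receptor of the peroxisomal matrix, had changes of 0 at 2 decimals (SE 0.078) in Mir7DKO cerebellum and -0.05 (SE 0.075) in cortex of experiment 2. Plk4, the kinase that starts centriole duplication, had -0.49 (SE 0.22, edgeR adjusted p = 0.664) and -0.11 (SE 0.19, edgeR adjusted p = 0.961). Of 19 TRIM family genes, Trim37 was the only one that passed in Mir7DKO of experiment 2, and it had been chosen for that. With Trim37 included, 4 of the 19 had an unadjusted p under 0.05 in cerebellum (21.1%, against 6.78% of all genes). In cortex they were 2 of 19 (10.5%, against 5.77%). Over the 5 mutant comparisons they were 9, or 9.47% of the list's tests against 5.69% of all tests. Trim2 and Trim9, of similar abundance in CPM, had changes between -0.03 and 0.06.

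Between wild-type tissues these lists differed widely, as did most genes. Of the Wdfy1 list, 12 were higher and 7 lower in cerebellum, among them Wdfy3 at 0.45 (SE 0.043) and Wdfy4 at -2.10 (SE 0.29). Of the peroxisome list 6 were higher and 5 lower, with Pex5 at -0.24 (SE 0.068) and Pex5l at -1.28 (SE 0.057). Of the centriole list 9 were higher, including Sass6 at 1.21 (SE 0.11), and 2 lower, including Plk4 at -0.46 (SE 0.19). Of the TRIM list 6 were higher and 7 lower, with Trim67 at 4.19 (SE 0.090), Trim62 at 3.24 (SE 0.058) and Trim46 at -0.71 (SE 0.058) beside Trim37 at -0.53.

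A list of 5 genes whose levels have been reported to differ between C57BL/6 substrains was read beside the members. Of these, Nnt, Ide, Fgfbp3 and Btaf1 were tested, and 0 passed in any of the 5 mutant comparisons by edgeR or DESeq2, with 5 unadjusted p under 0.05, or 25% of the list's tests. Of these, 3 were in CyrMut, where Ide, at 110 to 171 CPM against 103 to 115 CPM in wild type, had a log2 change of 0.49 (SE 0.13), Fgfbp3 one of 0.69 (SE 0.25) and Btaf1 one of 0.28 (SE 0.088), each with an edgeR adjusted p of 0.944. Entpd4 had 0 counts in all 33 libraries. Nnt, the mitochondrial transhydrogenase gene, was at 11.6 to 17.9 CPM in Mir7DKO of experiment 1B and at 11.6 to 13.9 CPM in its wild type. Its log2 change was 0.31 (SE 0.12, edgeR adjusted p = 0.543) in Mir7DKO cerebellum of experiment 2, -0.01 (SE 0.088) in Mir7DKO cortex and -0.30 (SE 0.10, edgeR adjusted p = 0.677) in CyrKO.

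The genes most like each member were sought over all 33 libraries by Pearson's r of log2(CPM + 1) after the wild-type mean of the same experiment and tissue had been subtracted, among 10394 genes with a mean count of at least 50 in each experiment and tissue. These values are descriptive, since the libraries share wild-type means and the members were chosen for their Mir7DKO values. For Wdfy1 they were Sgpp2 (r = 0.74), which encodes a sphingosine-1-phosphate phosphatase, Gli3 (r = 0.72), a transcription factor of hedgehog signalling, and Cxcl12 (r = 0.70), a chemokine. Sgpp2 also lies on chromosome 1, at chr1:78310345-78420289, with its start 1.47 Mb from that of Wdfy1 and so outside the window above. It was at 136, 128, 130 and 118 CPM in Mir7DKO replicates 1 to 4 of experiment 1B against 115 to 118 CPM in wild type, and at 135, 124 and 133 CPM against 109 to 122 CPM in cerebellum of experiment 2. Unlike Wdfy1, it did not fall into the same 2 levels in experiment 1B, since replicate 3 was above replicate 2. In experiment 2, Cxcl12 changed by 0.33 (SE 0.065) in cerebellum, at 86.9 to 102 CPM against 70.4 to 78.4 CPM, and by 0.18 (SE 0.065) in cortex. Relative to its SE, the cerebellar change of Cxcl12 was about as large as that of Padi2 (-0.42, SE 0.084), which passed. Gli3 changed by 0.16 (SE 0.12) in cerebellum and 0.31 (SE 0.094) in cortex.

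For Trim37 the most similar genes were Ncald (r = 0.73), a neuronal calcium sensor, Ikbkap (r = 0.68), a subunit of Elongator, and Snx19 (r = 0.68), a sorting nexin. Their log2 changes in experiment 2 were between -0.19 and -0.12, smaller than the -0.33 and -0.38 of Trim37, and none passed the test. For Padi2 they were Arhgef10 (r = 0.75), a guanine nucleotide exchange factor, Fa2h (r = 0.75), which hydroxylates fatty acids of myelin sphingolipids and is also on the oligodendrocyte list, and Cers2 (r = 0.71), a ceramide synthase for very long acyl chains. In Mir7DKO cortex of experiment 2 these 3 had changes of -0.18 (SE 0.067), -0.15 (SE 0.072) and -0.15 (SE 0.065), against -0.70 for Padi2, and none passed. Among the members themselves, r was -0.81 between Wdfy1 and Trim37, -0.53 between Wdfy1 and Padi2 and 0.60 between Trim37 and Padi2, in directions that their choice from experiment 2 largely sets.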

How the data were processed

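Frozen cerebellum and cortex gave stranded polyA libraries, per the labels' protocols. The authors deposited whole-number read counts per gene in 5 tables, per the file headers. STAR 2.4, HTSeq 0.6.1p1, DESeq2 1.10, mm10 and GRCm38 appear in the submitters' processing notes. Multi-read handling, use of strand and annotation release: not given in the sources used here. A total of 37 other columns of per-sample values were left aside. The Myo15 record lacked 1 cell, which was restored, and 1 count differed between the 2 tables that share wild-type libraries.

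The test on raw counts was edgeR 4.0.16 (R 4.3.3) with TMM factors, the quasi-likelihood F statistic and Benjamini-Hochberg adjustment over all tested genes at 0.05. Genes entered through filterByExpr at a minimum count of 10, and each fit held only the 2 groups compared. SE is the log2 change divided by the root of F. CPM use TMM-scaled sizes per experiment. Biological coefficients of variation were 5.13% to 9.79%. No 2 libraries of a group agreed within sampling noise. On counts simulated with 1 spread common to all genes, 93% to 97% of genes changed 2-fold were recovered, with 4 to 10 false calls. Real genes differ in spread, and changes under 2-fold, such as those of the members, were not simulated. Alternatives were DESeq2 1.42.0, its size factors in edgeR, no filter, a replicate block, a joint fit and leaving out each library. Positions and 3′ UTRs are from GENCODE for GRCm38.

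The members and all lists (pathway, substrain, oligodendrocyte, choroid plexus and tissue markers) were chosen with earlier results of these data known. Named beside the members are the 2 nearest tested neighbours, the 3 most similar genes and examples of each list. The examples among list genes that did not pass, and Nnt, were picked with their values in view. The labels' replicate numbers were not taken as pairs. Between the 2 groups of a comparison, same-numbered libraries did not all deviate together (r from -0.25 to 0.37).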

Additional observations from a re-analysis of the deposited data

Results flagged for a closer look

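Of 18 pairs of a member and a group with 4 libraries, 1 had a library far from the others by Dixon's criterion (critical value 0.829): Wdfy1 in wild-type cerebellum of experiment 1B, where replicate 1 was at 35.9 CPM and the other 3 at 30.3 to 31.1 CPM. Chance gives such a library in about 1 of 20 groups. Without it, the Wdfy1 change in CyrKO was 0.04 in place of -0.02, and that in Mir7DKO of experiment 1B was 0.40 in place of 0.34. Wdfy1 in Mir7DKO of the same experiment, with 2 libraries at each of 2 levels, does not meet this criterion, which looks for a single distant library.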

How the results depend on the processing

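The tissue differences of Wdfy1, Trim37 and Padi2 kept direction and call under all 13 alternatives, with highest adjusted p of 0.0276, 5.2e-09 and 8.8e-04. Leaving out each library gave 0.22 to 0.35, -0.55 to -0.50 and -0.39 to -0.30. No member was called in CyrMut or CyrKO under any alternative. There, leaving out each library gave -0.054 to 0.047 for Wdfy1, -0.056 to -0.0008 for Trim37 and -0.027 to 0.10 for Padi2 in CyrMut, and -0.047 to 0.042, 0.03 to 0.07 and -0.39 to -0.18 in CyrKO. The Mir7DKO ranges were 0.20 to 0.45, -0.04 to 0.02 and -0.22 to 0.02 in experiment 1B, Wdfy1 being lowest without Mir7DKO replicate 2. They were 0.73 to 0.86, -0.38 to -0.28 and -0.46 to -0.35 for experiment 2 cerebellum, and 0.83 to 0.88, -0.42 to -0.35 and -0.73 to -0.67 for experiment 2 cortex.

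Counts of genes called moved more, and the cause was not tested. For CyrMut, CyrKO, Mir7DKO 1B, Mir7DKO cerebellum 2 and Mir7DKO cortex 2 they were 1, 3, 1, 28 and 6 as reported and 43, 10, 4, 184 and 48 with no filter on low counts. DESeq2 called 4 (CyrMut) and 3 (Mir7DKO 1B), and the joint fit called 55 (cerebellum 2). Leaving out each library gave 1 to 17 (highest without CyrMut replicate 2), 3 to 10 (highest without its wild-type replicate 4), 0 to 2, 3 to 70 and 4 to 11 (highest without its wild-type replicate 1), and 10190 to 10446 between tissues. For cerebellum 2, the lowest, 3, came without wild-type replicate 1 and also without 2. In both cases all 3 were higher and 0 lower, so Trim37 and Padi2, which were lower, were not called. The omission of wild-type replicate 4 gave 6, with 1 lower, so Trim37 and Padi2 were not both called. The omission of Mir7DKO replicate 2 gave 67 and of Mir7DKO replicate 3 gave 70.

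With the replicate number as a block, 2 genes were called in Mir7DKO 1B and 19 in Mir7DKO cortex 2. No call for a member changed in CyrMut, CyrKO or between tissues, and Wdfy1 was at 0.31, 0.86 and 0.84 in the 3 Mir7DKO comparisons. The labels do not say whether same-numbered libraries share more than the number. Depth limits Wdfy1 and Padi2, at 160 to 790 counts a library, more than Trim37.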
